A study of Macaca mulatta with 12 samples.

Results

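The pre-miRNA mml-mir-126 was followed through 12 small RNA profiles of Macaca mulatta, the rhesus macaque. It is 1 of 832 pre-miRNAs that were read from the list of the study, and its 2 arms, miR-126-5p and miR-126-3p, are 2 of 1260 mature sequences. It was chosen by its name and its known role in blood vessels. The profiles came from untreated wild-type animals aged 36 months. Muscle, kidney and both parts of the intestine, small and large, were each profiled in 2 samples with the numbers 1 and 2. The lung, liver, occipital lobe and spinal cord were profiled once. The methods of the study give 2 animals, and no label ties a profile to one of them, so that p-values measure only the spread between these profiles.

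MicroRNAs are cut out of a hairpin as a short duplex, of which either strand can be loaded into an Argonaute protein. The loaded strand finds its target mRNAs mainly through its seed, which is bases 2 to 8. The gene of miR-126 lies within EGFL7, which encodes a protein secreted by endothelial cells, and miR-126 is known as the typical miRNA of the endothelium. Its 3' strand represses SPRED1 and PIK3R2, which damp the signal of vascular endothelial growth factor, and VCAM1, an adhesion molecule for white blood cells. Its 5' strand is known to repress DLK1 in endothelial cells. In the RefSeq annotation of the assembly T2T-MMU8v2.0, MIR126 also lies inside the span of EGFL7, beside AGPAT2, an enzyme of lipid synthesis.

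The hairpin is shown whole because the positions given for starts and ends are counted from its 5' end, and capitals mark its arms.
mml-mir-126: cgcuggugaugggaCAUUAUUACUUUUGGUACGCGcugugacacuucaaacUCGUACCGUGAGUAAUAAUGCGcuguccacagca

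The arms are shown next, each in its most abundant form, followed by the forms of the 3' arm that start 1 nt later or earlier. Capitals mark the seed, which differs between all of them.
mml-miR-126-5p: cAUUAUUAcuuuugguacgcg
mml-miR-126-3p: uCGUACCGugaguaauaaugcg
mml-miR-126-3p, start 1 nt later: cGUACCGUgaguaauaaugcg
mml-miR-126-3p, start 1 nt earlier: cUCGUACCgugaguaauaaugcg

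The hairpin has 85 nt. Its 5' arm covers positions 15 to 35 and its 3' arm positions 52 to 73, with 16 nt between them. The lowest free energy predicted by RNAfold was -36.8 kcal/mol, with 18 base pairs between the arms. In that fold the 3' arm overhung the duplex by 2 nt and the 5' arm by 1 nt at their 3' ends.

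The depth of the profiles was similar, from 22118095 valid reads in large intestine 1 to 25579064 in kidney 1, with 22871409 in lung. The share of valid reads assigned to mature sequences was less even, from 36.0% in liver to 68.5% in kidney 1, with 46.7% in lung. The TMM factors, which edgeR uses to make samples comparable, ranged from 0.519 in large intestine 2 to 2.35 in spinal cord, and the factor of lung was 1.90. The labels of the tissues were checked with known markers. For example, miR-122a-5p of hepatocytes was at 7320 RPTM (reads per 10000000 valid reads) in liver and at 4.37 RPTM or less elsewhere.

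All profiles together held 318730 reads of mml-mir-126, counting exact reads and those with a non-templated 3' tail of up to 2 nt. Of these, 79.0% came from the 5' arm and 20.96% from the 3' arm. The remaining 70 reads, or 0.0220%, lay elsewhere on the hairpin. A total of 85.2% of the reads matched the hairpin exactly, and 0 reads also matched another of the pre-miRNAs that were read. The levels of miR-126 given here are therefore not shared with another of these pre-miRNAs.

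Both arms had their highest level in lung. For the level of an arm, exact reads with both ends within 2 nt of the mature ends were counted and given in RPTM. For miR-126-3p, lung had 9051 RPTM from 20701 reads. Muscle followed with 1769 and 2049 RPTM, and liver had 1679.5 RPTM. These tissues stood above the remaining ones. Spinal cord had 1136 RPTM, and kidney had 1268 and 940.2 RPTM, so that spinal cord lay between both kidney profiles. Occipital lobe had 493 RPTM. The intestines were lowest, with 386 and 361 RPTM in large intestine and 325 and 444 RPTM in small intestine, and the ranges of these tissues overlapped.

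For miR-126-5p, lung had 36878 RPTM from 84346 reads. Muscle had 10766 and 10326 RPTM, liver 8566 RPTM and spinal cord 7311 RPTM. The order of these tissues by RPTM was that of the other arm. Kidney had 5666 and 3724 RPTM, and occipital lobe 3389 RPTM. Large intestine had 1874 and 2515 RPTM, and small intestine had 1969 and 2131 RPTM. Again the intestines overlapped and had the lowest levels. Among the 1260 mature sequences counted here, miR-126-5p ranked from 17 in lung to 69 in occipital lobe, and miR-126-3p from 34 in lung to 126 in occipital lobe.

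**Figure D1:**
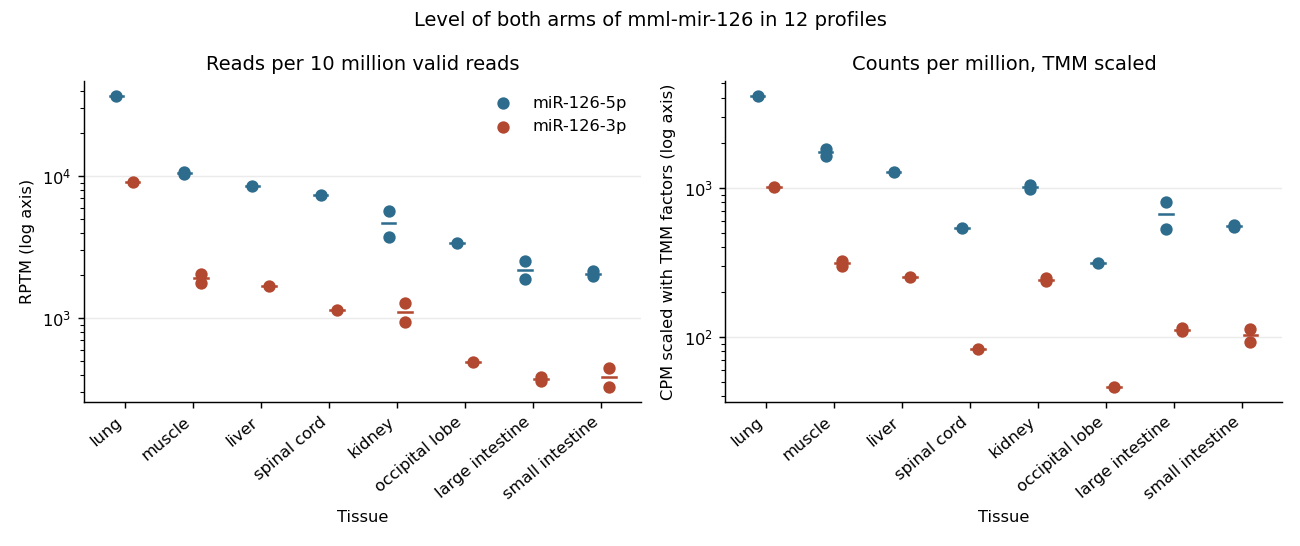
Each point is 1 profile of the tissue on the x axis, short lines are tissue means, and both y axes are logarithmic. The left panel gives RPTM and the right panel CPM (read counts scaled to a common library size) with TMM factors. Lung is highest for both arms in both panels, while spinal cord and occipital lobe stand lower on the TMM scale than on the RPTM scale.

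Lung exceeded the next profile 4.42-fold for miR-126-3p (muscle 2) and 3.43-fold for miR-126-5p (muscle 1). It exceeded the lowest profile 27.9-fold for miR-126-3p (small intestine 1) and 19.7-fold for miR-126-5p (large intestine 1). Over the other 11 profiles the levels spanned only 6.31-fold and 5.74-fold, respectively. As a share of the reads assigned to mature sequences, both arms together made up 0.983% in lung, and the next profile was liver with 0.285%. The lead of lung on this scale was 3.45-fold. In such bulk tissue, more endothelial cells and more miR-126 per cell cannot be told apart.

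The question whether lung stands apart from the other organs was tested with edgeR. Each tissue was compared with the mean of the other 7 tissues, and p-values were adjusted over 399 mature sequences that passed a filter on low values, both arms of miR-126 among them. Lung was 7.52-fold higher for miR-126-3p, a log2 fold change of 2.91 (SE 0.26, adjusted p = 7.15e-06). For miR-126-5p it was 5.50-fold higher, a log2 fold change of 2.46 (SE 0.28, adjusted p = 4.75e-05). In this comparison 27.6% of all sequences passed the test, and 13.0% were higher in lung. By the size of their change, miR-126-3p ranked 17 and miR-126-5p 25 among the 52 sequences that were higher. Lung has 1 profile, which the test assumes to vary like the tissues with 2 profiles. The log2 fold change of lung kept its direction and passed the test in all of 18 alternatives for each arm, and ranged from 2.65 to 3.44 for miR-126-3p and from 2.25 to 2.99 for miR-126-5p.

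Muscle was the other tissue with a higher level. Its log2 fold change was 0.96 (SE 0.24, adjusted p = 0.0052) for miR-126-3p and 1.01 (SE 0.24, adjusted p = 0.0043) for miR-126-5p, where 49.1% of all sequences passed the test. With the neural tissues as 1 group, miR-126-3p of muscle missed the threshold (0.72, adjusted p = 0.063).

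Occipital lobe, a part of the cerebral cortex, was lower for both arms. The log2 fold change was -2.20 (SE 0.41, adjusted p = 0.00061) for miR-126-3p and -1.79 (SE 0.41, adjusted p = 0.0022) for miR-126-5p. Here 63.4% of all sequences passed the test. With valid reads in place of TMM factors the values were -1.36 and -0.95 and still passed the test (adjusted p = 0.011 and 0.041).

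Spinal cord was lower for miR-126-3p, by a log2 fold change of -1.22 (SE 0.38, adjusted p = 0.017), and miR-126-5p did not pass the test (-0.92, SE 0.38, adjusted p = 0.057). In spinal cord 53.1% of all sequences passed the test. Without the lung profile, the call for miR-126-3p was lost (-0.82, adjusted p = 0.084), and without occipital lobe miR-126-5p passed (-1.20, adjusted p = 0.018). The result also depends on the scale. With valid reads in place of TMM factors, the log2 fold changes of spinal cord were 0.01 and 0.32. On that scale the median of all sequences rose from 0.28 to 1.50, so that miR-126 stood below it on both scales.

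Small intestine was lower for both arms, with log2 fold changes of -0.86 (SE 0.27, adjusted p = 0.029) for miR-126-3p and -0.86 (SE 0.28, adjusted p = 0.032) for miR-126-5p, where 33.8% of all sequences passed the test. Without the lung profile these values were -0.45 (adjusted p = 0.21) and -0.52 (adjusted p = 0.16), and the calls were also lost without either profile of small intestine. Large intestine had log2 fold changes of -0.73 (adjusted p = 0.061) and -0.56 (adjusted p = 0.15), which did not pass the test, while 26.8% of all sequences did. For miR-126-3p it passed without muscle 2 (-0.93), without occipital lobe (-1.07) or without spinal cord (-0.92), and for miR-126-5p without muscle 2 (-0.80), with adjusted p from 0.015 to 0.037. With valid reads as the scale, both intestines were lower for both arms. The log2 fold changes were then -1.82 and -1.67 in large intestine and -1.77 and -1.78 in small intestine for miR-126-3p and miR-126-5p, with adjusted p from 0.00089 to 0.0012. On that scale the median of all sequences moved from -0.0088 to -1.08 in large intestine and from -0.093 to -0.99 in small intestine.

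Kidney and liver did not differ from the other tissues beyond the spread. Kidney had log2 fold changes of 0.54 (SE 0.24, adjusted p = 0.12) and 0.14 (SE 0.26, adjusted p = 0.77), with 26.1% of all sequences called. With valid reads they were -0.03 and -0.41, while the median of all sequences moved from -0.23 to -0.84. Liver had 0.61 (SE 0.32, adjusted p = 0.18) and 0.52 (SE 0.33, adjusted p = 0.26), with 29.3% of all sequences called. Without the lung profile, miR-126-3p passed the test as higher in kidney (0.97, adjusted p = 0.0085) and in liver (1.04, adjusted p = 0.024).

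**Figure D2:**
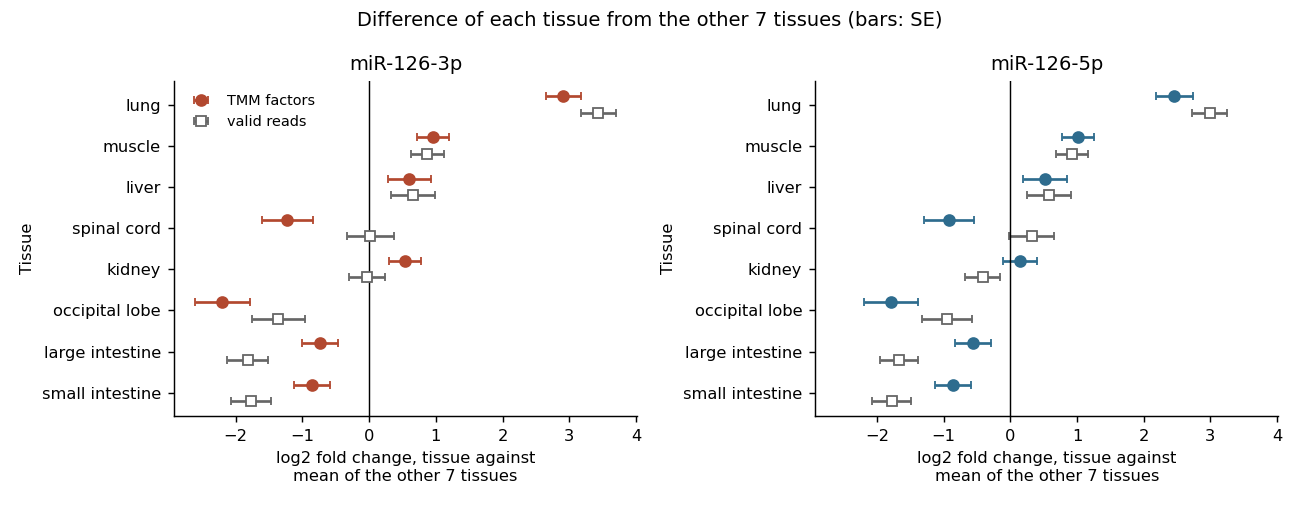
The x axis gives the log2 fold change of each tissue against the mean of the other 7 tissues, with bars of 1 SE. Filled points use TMM factors and open squares use valid reads. Lung lies furthest to the right for both arms on both scales, from 2.46 to 3.44, whereas spinal cord moves from below 0 to 0 or above.

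The order of the 8 tissues was tested in all 28 pairs. On the TMM scale the order was lung, muscle, liver, kidney, large intestine, small intestine, spinal cord and occipital lobe for both arms. Of the 28 pairs, 21 passed the test for miR-126-3p and 16 for miR-126-5p, while 37.7% of the tests of all sequences did. Lung differed from each of the 7 other tissues in both arms, with adjusted p of at most 0.0090 for miR-126-3p and 0.032 for miR-126-5p, and 29.6% of the tests of all sequences in these 7 pairs passed. Among neighbours in the order, lung and muscle differed, by log2 fold changes of 1.71 for miR-126-3p (SE 0.38, adjusted p = 0.0049) and 1.27 for miR-126-5p (SE 0.39, adjusted p = 0.032). Kidney and large intestine differed for miR-126-3p (1.11, SE 0.33, adjusted p = 0.029), and not beyond the spread for miR-126-5p (0.61, SE 0.33, adjusted p = 0.22). No other neighbours differed beyond the spread between profiles. By RPTM, spinal cord stood in place 4 and occipital lobe in place 6, for both arms.

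How unusual the lead of lung is among mature sequences was described without a test. Of the 399 sequences, 47 (11.8%) had their highest level in lung. Only 5 of these led the next profile by more than miR-126-3p did, and they were named for that value after it was seen. These were miR-449a-5p (35.4-fold), miR-34b-5p (9.84-fold), miR-223-3p (6.08-fold), miR-34c-5p (5.80-fold) and miR-1247-3p (5.72-fold). The miR-34 and miR-449 families are known from cells with many cilia, such as those of the airway, and miR-223 is known from myeloid cells. These 5 sequences had 77.0 to 1268 RPTM in lung, so that both arms of miR-126 were far more abundant than any of them.

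**Figure D3:**
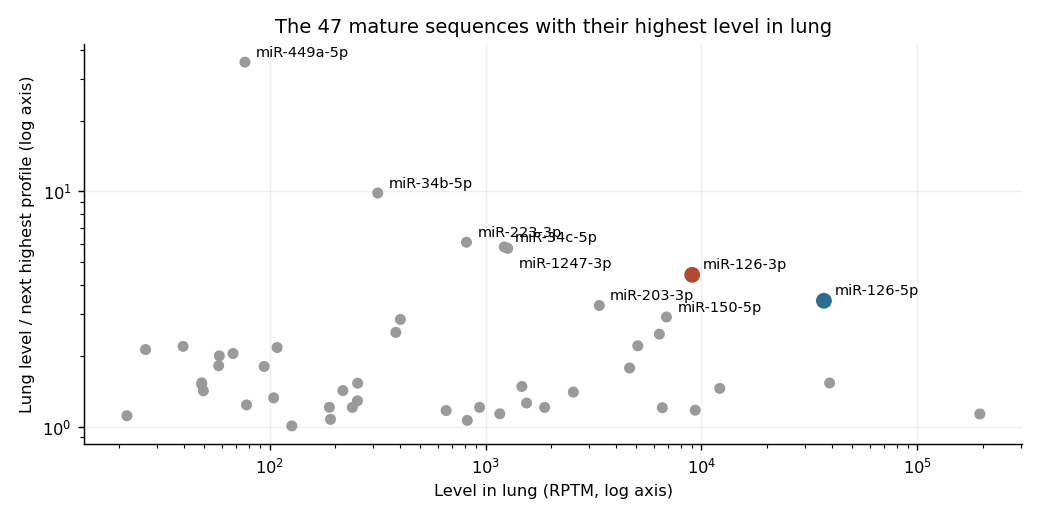
The 47 mature sequences with their highest level in lung are plotted by that level (x axis, RPTM) and by its ratio to the next highest profile (y axis), both on logarithmic axes. The arms of miR-126, in red (3p) and blue (5p), combine a high level with a 4.42-fold and 3.43-fold lead.

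Other miRNAs that are known from blood vessels were given by a list of 16 entries, each with its more abundant arm. In lung, 6 of the 16 were higher and 2 were lower, and the other 8 did not pass the test, while 13.0% of all 399 sequences were higher and 14.5% were lower. Their median log2 fold change in lung was 0.72, while that of all 399 sequences was -0.31. The higher ones were miR-10a-5p (1.93, adjusted p = 0.00097), miR-130a-3p (1.84, adjusted p = 0.0034), miR-221-3p (1.48, adjusted p = 0.0076), miR-27a-3p (1.37, adjusted p = 0.0070), miR-23a-3p (1.33, adjusted p = 0.0098) and miR-24-1-3p (1.16, adjusted p = 0.023). The miRNAs miR-23a and miR-27a come from 1 cluster, and miR-130a is known to act on homeobox genes that restrain vessel growth. The lower ones were miR-31-5p (-3.96, adjusted p = 0.0033) and miR-132-3p (-2.43, adjusted p = 0.0084). Of the 16, 3 had their highest level in lung, namely miR-221-3p, miR-24-1-3p and miR-130a-3p, where 11.8% of all 399 sequences did. In muscle, the log2 fold changes of miR-23a-3p, miR-27a-3p and miR-24-1-3p were 2.06, 2.03 and 1.23, larger than in lung. Those of miR-10a-5p, miR-130a-3p and miR-221-3p in muscle were 0.46, -1.05 and 0.50, smaller than in lung. None of the 16 was increased in lung by as much as either arm of miR-126.

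Markers of other cells also moved with lung, and their part in the level of miR-126 was not tested. The counts are to be read against the 13.0% of all sequences that were higher in lung and the 14.5% that were lower. All 3 miRNAs of white blood cells (miR-142-5p, miR-150-5p and miR-223-3p) were higher in lung, with a median log2 fold change of 3.19. Their sum was 10248 RPTM in lung and between 441 and 2867 RPTM in the other profiles. All 3 epithelial miRNAs of the list that were measured (miR-200a-3p, miR-200c-3p and miR-141-3p) were higher than the mean of the other tissues as well. Their sum was 9773 RPTM in lung and 10.04 to 8939 RPTM elsewhere. Most of the sum in lung was miR-141-3p with 9354 RPTM, the only 1 of the 3 with its highest level there. In lung and small intestine 1, miR-200a-3p was at 344 and 794 RPTM, and miR-200c-3p at 75.2 and 175 RPTM. None of the 3 red blood cell miRNAs (miR-451-5p, miR-144-5p and miR-486-5p), of the 2 of smooth muscle and pericytes (miR-143-3p and miR-145-3p) and of the 2 of fibroblasts (miR-199a-1-3p and miR-214-3p) passed the test in lung, whose median log2 fold changes were 1.60, 0.66 and 0.38. The less abundant arm of mml-mir-144, miR-144-3p, was higher in lung (2.36, SE 0.72, adjusted p = 0.026) and was at 242 RPTM there, with 200.4 RPTM in muscle 2 as the next profile. The red blood cell miRNAs of the list summed to 266632 RPTM in lung, of which miR-486-5p alone had 265062 RPTM. They summed to 9399 to 821164 RPTM elsewhere, highest in muscle 2, where miR-486-5p had 815651 RPTM. Those of smooth muscle summed to 1481910 RPTM in lung and 103128 to 3569640 RPTM elsewhere, and those of fibroblasts to 6325 RPTM in lung and 384 to 18691 RPTM elsewhere. In muscle 1 and muscle 2, miR-451-5p was at 295 and 5006 RPTM, miR-144-5p at 35.0 and 506 RPTM, and miR-486-5p at 449799 and 815651 RPTM. In the same profiles miR-126-3p was at 1769 and 2049 RPTM, and a link to these markers was not tested.

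Markers of skeletal muscle, neurons and intestine were low in lung against the profile where they were highest. The miRNAs of skeletal muscle (miR-1-1-3p, miR-133a-3p and miR-206-3p) summed to 144 RPTM in lung and reached 145354 RPTM in muscle 2, and miR-206-3p was at 0 in lung. One of the 3 was lower in lung by the test. Those of neurons (miR-124a-1-3p and miR-9-1-5p) summed to 224 RPTM in lung and 394379 RPTM in occipital lobe. Those of the intestine (miR-215-5p and miR-194-1-5p) summed to 135 RPTM and 199527 RPTM in small intestine 2. Both neuronal and both intestinal miRNAs were lower in lung. The kidney miRNAs (miR-204-5p and miR-10b-5p) summed to 35673 RPTM in lung, and to 23288 to 3735530 RPTM elsewhere, highest in kidney 1. Most of the sum in lung was miR-10b-5p with 34558 RPTM, which was also at 1744760 and 1408970 RPTM in muscle. In lung and occipital lobe, miR-204-5p was at 1114 and 19591 RPTM. Of the 2, miR-10b-5p was lower in lung by the test and miR-204-5p did not pass.

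The sequences whose profile was most like that of miR-126-3p were ranked by Pearson's correlation of log2(RPTM + 1) over the 12 profiles, which share their libraries and depth. The other arm, miR-126-5p, came first with 0.98, and with 0.96 without lung. Next came miR-532-3p (0.91), miR-30d-3p (0.85), miR-374a-5p (0.84), miR-144-3p (0.84) and miR-1247-3p (0.83). The red blood cell miRNA miR-144-3p is the other arm of a marker given above. All 5 had their highest level in lung, at 58.2, 256, 78.3, 242 and 1268 RPTM in the same order. They were picked for likeness to miR-126-3p, itself highest in lung, so this count is no separate result. Of all 399 sequences, 11.8% were highest in lung. The log2 fold changes of the 5 in lung were 1.63, 0.94, 0.46, 2.36 and 5.96 (SE 0.50, 0.40, 0.49, 0.72 and 0.49). Without lung the correlations were 0.90, 0.82, 0.81, 0.81 and 0.62, so that miR-1247-3p rested most on lung.

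The arms were then compared with each other. The ratio of 5' arm reads to 3' arm reads was 4.07 in lung, which is 80.3% of the reads of both arms in the 5' arm (95% Wilson interval 80.1% to 80.5%, for counting error only). The ratio was lowest in kidney 2 with 3.96, and kidney 1 had 4.47. It was 5.10 in liver and 6.09 and 5.04 in muscle. The neural tissues had 6.87 (occipital lobe) and 6.44 (spinal cord). In large intestine it was 4.86 and 6.96, and in small intestine 6.06 and 4.80. The profiles of 1 tissue differed by 0.17 to 0.52 on the log2 scale, within a range of 0.81 over all profiles. Reads of the 5' arm exceeded those of the 3' arm in all 12 profiles, with a median ratio of 5.07. Whether the molecules of both arms stand in the same ratio as their reads was not tested.

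The differences between tissues were within the spread. Over the 121 pre-miRNAs with enough reads of both arms, an F test with limma over the 8 tissues called 15.7% of them. For mml-mir-126 the adjusted p was 0.79, and its contrast of lung against the other tissues was -0.45 on the log2 scale (SE 0.39, adjusted p = 0.59). None of its 8 tissue contrasts was called (lowest adjusted p = 0.54), where 6.20% of the contrasts of all pre-miRNAs were. The SD of its log2 ratio over the 12 profiles was 0.28, while the median SD of all pre-miRNAs was 0.84 and only 3 had a smaller SD, namely mml-mir-181a-1, mml-mir-195 and mml-mir-21. Thus, while the level changed 27.9-fold or 19.7-fold between profiles, the ratio of the arms varied 1.76-fold. The SD of such a ratio is larger where an arm has few reads. Each arm of mml-mir-126 had at least 794 reads in every profile, while the filter asked for a mean of 5 RPTM in each arm. The part of read numbers in the rank of mml-mir-126 by SD was not tested. The size of the ratio depends on which reads are counted. It had a median of 4.26 over all exact and tailed reads of each arm and its flank, and of 13.6 over only the most abundant sequence of each arm.

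**Figure D4:**
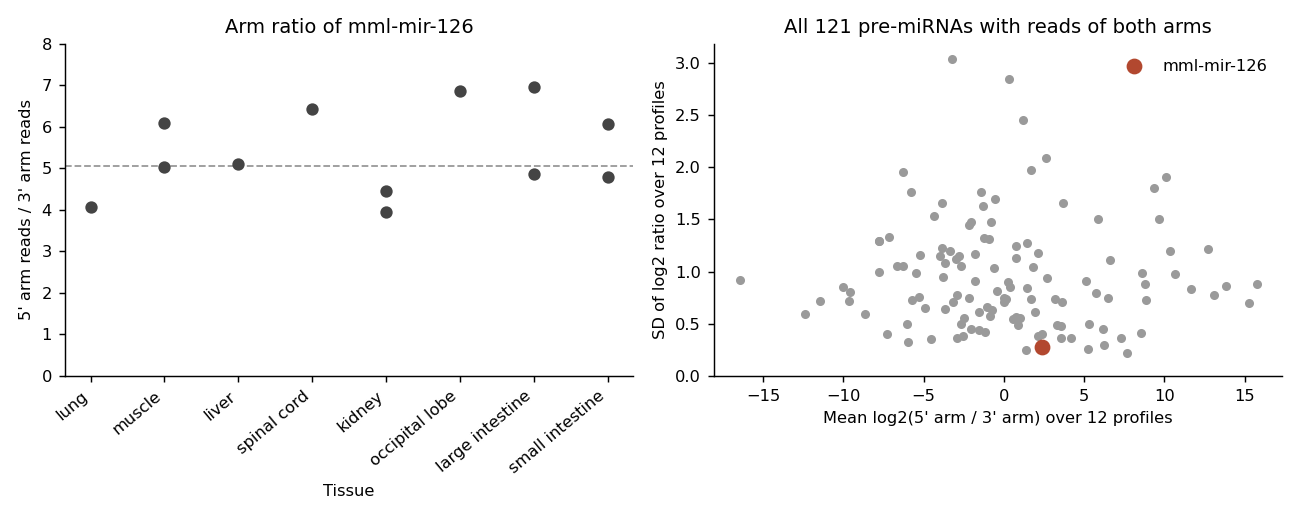
The left panel gives the ratio of 5' arm to 3' arm reads in each profile (points) with the median of 5.07 (dashed line), and all points lie between 3.96 and 6.96. The right panel plots the mean and the SD of the log2 ratio over 12 profiles for 121 pre-miRNAs, with mml-mir-126 in red near the bottom at an SD of 0.28.

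The ends of the reads were described next, since a different start gives a different seed. Of the 251865 reads of the 5' arm, 99.9% started at position 15, and the lowest share was 99.7% in small intestine 1. The 3' arm was less uniform. Of its 66795 reads, 73.0% started at position 52, 21.1% at position 53 and 5.84% at position 51. Reads with either of the other starts have another seed than the main form. The later start was most common in occipital lobe with 28.7%, followed by 25.7% in large intestine 1, and it was 20.3% in lung and lowest in kidney 2 with 18.6%. The earlier start ranged from 4.29% in muscle 2 to 7.10% in kidney 2. Among 218 mature sequences with enough reads, the median share at the most common start was 98.4%, and 201 had a higher share than miR-126-3p.

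These shares did not differ between tissues beyond the spread. The F test gave adjusted p of 0.83 for miR-126-3p and 0.34 for miR-126-5p, where 5.50% of 218 sequences were called. In single tissues 0 contrasts of either arm were called, and 1.20% of all contrasts were. The number at an unadjusted p under 0.05 was 0 for miR-126-3p and 1 for miR-126-5p.

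At the 3' end, 94.2% of the 5' arm reads ended at position 35, and each profile had between 92.7% and 96.8% there. The 3' arm had mixed ends. Position 73, the annotated end, held 55.9% of the reads, position 71 held 24.02% and position 72 held 15.6%. The share at position 71 was lowest in both kidney profiles (14.5% and 15.7%), highest in muscle 1 (27.8%), and 25.7% in lung. The share at position 72 was higher in the second profile of all 4 tissues with 2 profiles. The gap was wide in muscle (13.3% and 25.2%) and small intestine (17.5% and 30.5%), and narrow in large intestine (13.8% and 14.3%) and kidney (17.28% and 17.30%). In the 8 profiles outside muscle and small intestine it was between 12.4% and 17.3%. The mean end of miR-126-3p also lay nearer to the 5' end in the second profile of each of these tissues, with differences of -0.20 nt in small intestine, -0.069 nt in large intestine, -0.061 nt in muscle and -0.057 nt in kidney. The median difference of all 218 sequences was -0.037, 0.11, 0.0034 and -0.11 nt in the same order.

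The mean templated end did not differ between tissues by the test. Its F test gave adjusted p of 0.54 for miR-126-3p and above 0.99 for miR-126-5p, with 3.21% of the sequences called. Of the single tissue contrasts 0 were called for either arm, against 1.09% of all contrasts. For miR-126-3p 1 contrast, that of kidney, had an unadjusted p under 0.05 (adjusted p = 0.27).

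Nucleotides added to the 3' end are known to come from enzymes that extend mature miRNAs after they are cut. Whether 3' bases of mml-mir-126 reads that do not match the hairpin were added or misread was not tested. Forms with such bases are given with these bases in capitals.
miR-126-5p with A: cauuauuacuuuugguacgcgA
miR-126-5p shortened, with C: cauuauuacuuuugguacgcC
miR-126-3p with A: ucguaccgugaguaauaaugcgA
miR-126-3p shortened, with AA: ucguaccgugaguaauaaugAA

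Tails made only of A were the main kind in both arms. They were on 18.4% of the 3' arm reads and on 7.28% of the 5' arm reads, while the median of 218 sequences was 4.06%. Only 26 sequences had a larger share than miR-126-3p, and 72 had a larger share than miR-126-5p. The first form shown made up 6.65% of the 5' arm reads and the third 6.94% of the 3' arm reads. Of the 3' arm reads that ended at position 71, 21.7% carried AA, and of those that ended at position 73, 0.150% did. The tail AA, thus, lay mostly on reads that were 2 nt shorter, which brought them back to the length of the main form. The second form shown, with C in place of the last base of the 5' arm, made up 2.28% of the 5' arm reads and ranged from 0.910% in kidney 1 to 3.44% in large intestine 1.

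The share of reads with A tails was lowest in liver in both arms. For miR-126-3p it was 8.77% in liver, 15.3% and 12.9% in kidney, 19.3% in occipital lobe and 15.6% in spinal cord. Lung had 19.9%. It was 20.7% and 21.95% in muscle, 15.6% and 19.8% in large intestine and 19.5% and 21.5% in small intestine. For miR-126-5p it was 3.76% in liver and between 6.25% and 9.17% in the other 11 profiles, with 7.13% in lung. Liver thus lay apart from all other profiles in both arms. The median share of all 218 sequences in liver was 4.12%, within the 3.02% to 5.61% of the 12 profiles.

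By the test, this difference of liver did not pass. On the logit scale it was -1.21 (SE 0.35, adjusted p = 0.25) for miR-126-3p and -1.05 (SE 0.27, adjusted p = 0.22) for miR-126-5p, with unadjusted p of 0.0073 and 0.0041. The F test over tissues gave adjusted p of 0.32 and 0.31, where 0.917% of the sequences were called. Over all tissue contrasts 0.860% of those of all sequences were called and 0 of those of miR-126. At an unadjusted p under 0.05 there were 1 contrast for miR-126-3p and 2 for miR-126-5p.

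Tails made only of U were rarer. They were on 5.58% of the 3' arm reads, from 2.92% in liver to 7.93% in kidney 1, with 5.15% in lung. On the 5' arm they were on 0.417% of the reads, from 0.305% in liver to 0.575% in kidney 1. The median of 218 sequences was 2.20%, so that the arms lay on either side of it. The F test gave adjusted p of 0.57 and 0.59, with 3.67% of the sequences called. No tissue contrast of miR-126 was called, against 0.975% of all contrasts, and 1 of miR-126-3p and 0 of miR-126-5p had an unadjusted p under 0.05.

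**Figure D5:**
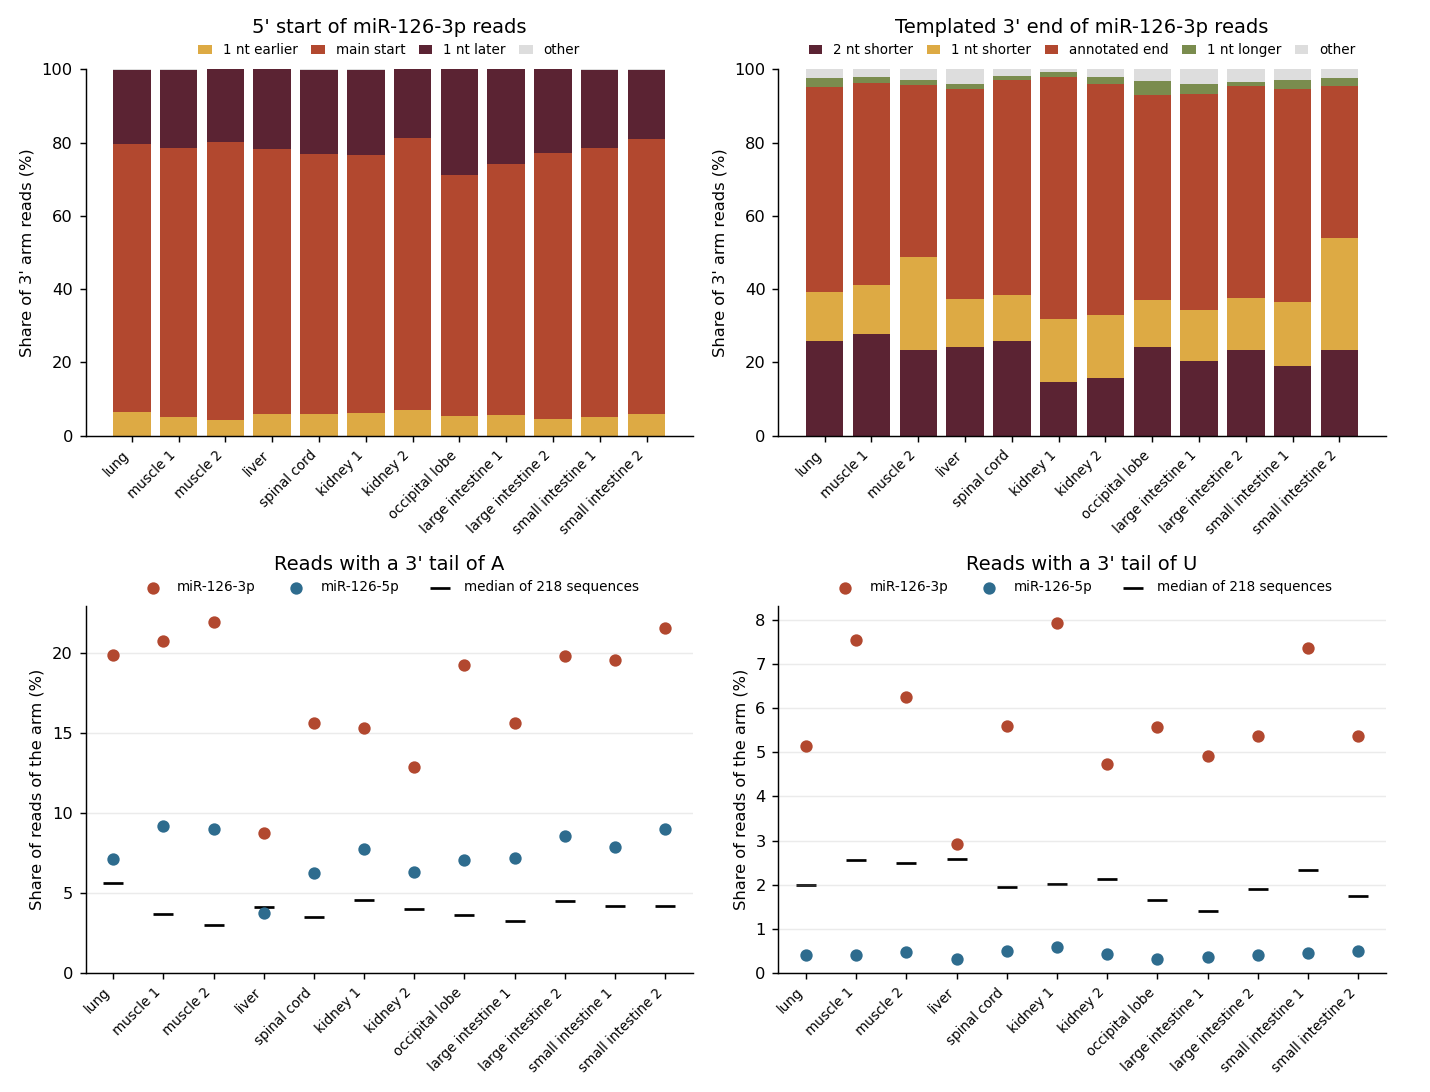
The upper panels stack the shares of 3' arm reads by 5' start (left) and by templated 3' end (right) in each profile on the x axis. The lower panels give the share of reads with a tail of only A (left) or only U (right) in each profile for both arms, beside the median of 218 mature sequences. Liver has the lowest share of A tails in both arms, 8.77% and 3.76%.

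Finally, reads with 1 mismatch inside the arms were examined, since the study identified editing sites in miRNAs. Changes are written with the base of the hairpin, the position counted from 1 at the 5' end of the mature arm, and the base of the read. With at least 10 reads, 85 changes were found, and 0 of them reached 5% in a profile. The largest was C7U in the seed of miR-126-3p with 1.08% (749 of 69430 reads), and it ranged from 0.401% to 1.36%, highest in occipital lobe (24 of 1760 reads, 95% Wilson interval 0.918% to 2.02%). It was the only change in a seed that reached 1%. Of the 85 changes, 10 were from A to G, the change that A-to-I editing leaves in reads. The highest share of any of them in a profile was 0.379%, for A11G of miR-126-3p in large intestine 2 (5 of 1319 reads, 95% Wilson interval 0.162% to 0.884%). The deposited sequences carry no quality scores, and the part of sequencing errors in these shares was not tested.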

How the data were processed

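Small RNAs of 12 tissue samples were sequenced by the authors. The authors kept reads with high scores, removed the 3' adapter and deposited counts of identical sequences of 18 to 44 nt, without normalization. The pre-miRNAs came from a list in the supplement of the study, of which 832 were read here. The list that the study describes is longer, so ranks and shares of all sequences cover only those read. The mature sequence of the 5' arm of mml-mir-126 was taken from its most abundant exact read of 20 to 24 nt, as for 54 arms in all. The aligner used by the authors was not rerun, since no genome was used here.

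The deposited counts were matched with Python 3.11.15, numpy 2.4.6, pandas 2.3.3 and scipy 1.17.1. The first 15 nt had to match exactly, and 3' tails of up to 2 nt were allowed. RPTM values were counts per 10000000 valid reads. Levels were tested in R 4.3.3 with edgeR 4.0.16 (quasi-likelihood, TMM, 8 tissue groups, Benjamini-Hochberg adjustment). Sequences were kept where the mean reached 5 RPTM and the SD reached 1. The 4 tissues with 2 profiles gave 4 residual degrees of freedom. Arm ratios (1 read added to each arm), starts, ends and tails (at least 20 reads in every profile, logit with 0.5 read added to each share) were tested with limma 3.58.1. A call is an adjusted p under 0.05. The alternatives tried were DESeq2 1.42.0, valid reads as the scale, filters, 7 groups, read assignment, tail lengths, pseudocounts, leaving out each profile and a replicate block. ViennaRNA 2.7.2 folded the hairpin and matplotlib 3.10.9 drew the figures. Wilson intervals have a confidence level of 95% and cover counting error only, since PCR reads that carry no molecular identifier are not independent.

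In simulated counts, 99.5% of 200 sequences changed 8-fold in lung were recovered among 399, with 7 false calls. All simulated sequences had the same dispersion, and apart from these changes each had the same level in all tissues. Simulated lung also varied like the other profiles, so these counts cannot show whether the real lung profile does. For the arm ratio, 100% of 30 changed 8-fold were recovered among 121, with 0 false calls. All simulated ratios had the same SD, while the SDs of the data ran from 0.22 to 3.04. The simulation thus does not show whether a difference as small as that of mml-mir-126 in lung (-0.45 on the log2 scale) would be found. The miRNA and the lists were chosen with earlier results of these data known. The named sequences are both arms, the 5 other sequences most correlated with miR-126-3p, the vessel list and the cell type markers. Exceptions are named where they occur.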

Additional observations from a re-analysis of the deposited data

How the results depend on the processing

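For each arm of miR-126 the call in lung was kept under all 18 alternatives, while calls in tissues nearer to the mean changed. Values are log2 fold changes of a tissue against the mean of the other 7 tissues, and the cause of these changes was not tested. With valid reads in place of TMM factors, the direction turned in kidney (-0.032 for miR-126-3p and -0.41 for miR-126-5p) and in spinal cord (0.015 and 0.32), and large intestine passed the test (-1.82 and -1.67). The number of called sequences then rose to 160 in kidney and 199 in large intestine, from 104 and 107. With DESeq2, kidney (0.72, miR-126-3p), large intestine (-0.86 and -0.70) and spinal cord (-0.93, miR-126-5p) passed. With only identical reads, kidney (0.80, miR-126-3p) and spinal cord (-1.17, miR-126-5p) passed, the calls fell to 69 in large intestine, 73 in lung, 158 in occipital lobe and 84 in small intestine, from 107, 110, 253 and 135, and the median arm ratio was 13.6. With a mean of 50 RPTM as the minimum, large intestine (-0.94, miR-126-3p), liver (1.12 and 1.04) and spinal cord (-1.07, miR-126-5p) passed and small intestine was lost (-0.66 and -0.65), and the calls were 157 in occipital lobe and 139 in spinal cord, the latter from 212. With no filter, large intestine passed (-0.93) and small intestine was lost (-0.86), both for miR-126-3p. With tailed reads added, large intestine passed (-0.89) and small intestine was lost (-0.70) for miR-126-3p, and spinal cord passed for miR-126-5p (-1.01). With 7 groups, muscle was lost for miR-126-3p (0.72), kidney turned for miR-126-5p (-0.063), and 67 sequences were called in kidney, 60 in large intestine, 62 in lung and 71 in small intestine.

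When each profile was left out in turn, miR-126-3p ranged from 0.23 to 0.97 in kidney, -1.07 to -0.32 in large intestine, 0.30 to 1.04 in liver, -1.20 to -0.45 in small intestine and -1.57 to -0.82 in spinal cord. For miR-126-5p the ranges were -0.12 to 0.50 in kidney, -0.89 to -0.22 in large intestine, 0.27 to 0.89 in liver (highest without lung and lowest without occipital lobe), -1.14 to -0.52 in small intestine and -1.20 to -0.58 in spinal cord. The value for kidney turned below 0 only without occipital lobe. The number of called sequences ranged from 64 to 122 in kidney, 56 to 123 in large intestine and 71 to 140 in small intestine, each lowest without a profile of that tissue. The arm ratio, starts, ends and tails of miR-126 had 0 calls under any alternative run.

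The replicate numbers were not found to pair the profiles, since the deviations of profiles with the same number had a mean correlation of 0.040 (-0.124 to 0.142 over 6 pairs of tissues). A fit with the replicate block over the 8 numbered profiles gave log2 fold changes of miR-126-3p against the other 3 tissues of 0.96 in kidney, 1.16 in muscle, -1.01 in large intestine and -1.11 in small intestine. The fit of these profiles without the block, which was chosen after seeing the data, gave 0.96, 1.16, -1.02 and -1.10, and the block changed no call of miR-126. It moved the number of called sequences from 118 to 115 in kidney, 173 to 169 in muscle, 70 to 59 in large intestine and 90 to 82 in small intestine. A tissue with 1 profile, lung among them, has no spread of its own in these tests.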
